A study of Homo sapiens with 30 samples.

Results

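The human mitochondrial genome is a circle of 16569 base pairs that carries 37 genes, and the count table of this study lists every 1 of them on its chromosome MT. These 37 rows, of 60664 genes in the table, are the subject here. Members were taken by chromosome alone, though this set was chosen with earlier results of these data known. They were split by the strand on which GRCh38 annotates them. The 28 genes on the plus strand, called heavy-strand genes here because they are copied from the heavy strand of the DNA, comprised 12 mRNAs, 2 rRNAs and 14 tRNAs. The 9 genes on the minus strand, the light-strand genes, were the mRNA MT-ND6 and 8 tRNAs.

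RNA was sequenced from Flp-In T-REx HEK293 cells, an established human embryonic kidney line built to take up a transgene at a fixed site and to switch it on with tetracycline. One line carried GFP-tagged TIA1a in its wild-type form (WT), and the other carried a mutant form linked to Welander distal myopathy, a muscle disease, and is called WDM here. TIA1 is an RNA-binding protein that collects in stress granules, which are clusters of stalled mRNA and protein. There were 10 groups of 3 libraries. Cytosolic RNA came from each line untreated, after tetracycline, and after tetracycline followed by 0.5 mM sodium arsenite for 60 min, an oxidative stress. Granule RNA came from each line after tetracycline, without or with the same arsenite treatment: lysate was cleared by a slow spin, pelleted by a faster one, and the resuspended pellet was captured on beads against GFP. Every group carried a GFP-TIA1a transgene, and no line without it was included. The sources used here do not say whether each line was 1 clone, nor whether the 3 libraries of a group came from separate cultures, so p-values measure the spread between libraries, which may be technical. A pellet spun at that speed can hold organelles as well as granule cores, and how much of the mitochondrial RNA in the granule libraries was bound to TIA1 was not tested.

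Mitochondrial DNA is transcribed by its own polymerase, POLRMT, with TFAM and TFB2M, as long transcripts of each strand. Most mRNAs and rRNAs lie between tRNAs, which are cut out by RNase P and ELAC2, and this frees the messages on either side. The mRNAs encode core subunits of respiratory complexes I (MT-ND genes), III (MT-CYB), IV (MT-CO genes) and V (MT-ATP genes), and the rRNAs and tRNAs serve the mitochondrial ribosome. The light-strand transcript holds little besides MT-ND6 and its tRNAs, and most of it is normally removed by the SUV3-PNPase degradosome with LRPPRC-SLIRP and other RNA-binding proteins shaping what persists.

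The sequences below are those of the tRNAs that the results turn on, written 5′ to 3′ as DNA from the GRCh38 MT sequence, on the strand of the gene, with the anticodon in capitals. MT-TP (tRNA for proline, light strand, chrMT:15956-16023) and MT-TT (threonine, heavy strand, chrMT:15888-15953) are shown as a pair, because they are neighbours on opposite strands at the far end of the coding region. Both were called between the cell lines in untreated cytosol, in opposite directions, and the MT-TT call was lost in some fits with 1 library left out.
MT-TP: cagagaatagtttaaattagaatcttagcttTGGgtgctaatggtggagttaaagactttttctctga
MT-TT: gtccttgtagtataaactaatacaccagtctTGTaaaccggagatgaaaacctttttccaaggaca
MT-TS1 (serine, chrMT:7446-7514), MT-TY (tyrosine, chrMT:5826-5891), MT-TC (cysteine, chrMT:5761-5826) and MT-TQ (glutamine, chrMT:4329-4400) are the light-strand tRNAs followed in the granule fraction. MT-TY and MT-TC share 1 base, and MT-TQ overlaps the heavy-strand MT-TI by 3 bases on the opposite strand.
MT-TS1: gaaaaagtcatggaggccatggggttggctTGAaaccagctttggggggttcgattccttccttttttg
MT-TY: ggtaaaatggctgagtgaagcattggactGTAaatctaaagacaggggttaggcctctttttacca
MT-TC: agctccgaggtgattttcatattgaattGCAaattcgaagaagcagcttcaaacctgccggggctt
MT-TQ: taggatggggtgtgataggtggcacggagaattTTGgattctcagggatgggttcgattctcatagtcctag
The first 90 coding bases of MT-ND6 (light strand, chrMT:14584-14673) and of MT-CO3 (heavy strand, chrMT:9207-9296) follow, with the start codon in capitals, to show how the strands differ in base composition.
MT-ND6: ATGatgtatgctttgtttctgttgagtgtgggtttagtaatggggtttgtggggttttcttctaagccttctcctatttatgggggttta
MT-CO3: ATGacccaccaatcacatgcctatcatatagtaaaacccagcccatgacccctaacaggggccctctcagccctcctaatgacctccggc
The whole MT-ND6 gene was 35.6% G and 7.05% C, whereas the 12 heavy-strand mRNAs together were 12.0% G and 33.1% C. The 8 light-strand tRNAs held 28.6% G. MT-ATP8 and MT-ATP6 share 46 bases on the same strand (chrMT:8527-8572) and MT-ND4L and MT-ND4 share 7, so their reads cannot be fully separated.

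Libraries held 5906167 to 27419145 counts, and counts on chromosome MT made up 0.0989% to 0.197% of the cytosolic libraries and 0.0536% to 0.433% of the granule libraries. The mRNA of epithelial markers, summed, was 274 to 472 CPM (counts of a gene scaled to a common library total) in cytosol and 74.0 to 133 CPM in granule libraries, with haematopoietic markers at 0 to 0.262 CPM. TIA1 itself received 3 counts over the 30 libraries, so the induction could not be checked with it. Intervals and floors cover counting error only, and 3 counts correspond to 0.109 to 0.508 CPM, depending on the library. Granule replicates varied more than cytosolic ones: the 12 heavy-strand mRNAs summed to 2841 ± 1185 CPM (SD, n = 3) in WT tetracycline granules and 1150 ± 209 CPM (SD, n = 3) in the matching cytosol. WDM tetracycline granule replicate 1 stood apart from the others of its group, with 1194 CPM over all MT genes, where replicates 2 and 3 held 3407 and 4203 CPM.

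The mitochondrial counts were almost all heavy-strand mRNA. Of 719470 counts on MT over all libraries, the 12 heavy-strand mRNAs held 95.9%, the 2 rRNAs 2.15%, the 14 heavy-strand tRNAs 0.130%, MT-ND6 0.554% and the 8 light-strand tRNAs 1.25%. The library kit removes rRNA before sequencing, so the rRNA level is what escaped removal and is no measure of rRNA abundance. MT-CO1, the catalytic subunit of complex IV, alone made up 44.3% to 73.3% of the MT counts of a library. MT-CO3, another complex IV subunit, made up 21.9% to 41.4% in cytosolic libraries and 7.98% to 18.2% in granule libraries, so the ranges of the fractions did not overlap.

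Per kilobase of gene, the order in untreated WT cytosol was led by MT-CO3 at 604 ± 26.2 CPM per kb (SD, n = 3) and MT-CO1 at 533 ± 47.7 CPM per kb (SD, n = 3). The gap between those neighbours was of the order of their spread. MT-CO2, the remaining mitochondrial complex IV subunit, came next at 88.8 ± 1.84 CPM per kb (SD, n = 3). MT-TP at 54.8 ± 13.5 and MT-TT at 44.8 ± 5.80 CPM per kb (SD, n = 3) followed and did not differ beyond their spread. MT-ND4, a complex I subunit, stood at 31.1 ± 1.01 CPM per kb (SD, n = 3), and MT-ND2, also of complex I, at 4.89 ± 0.0373 CPM per kb (SD, n = 3) was the lowest mRNA of this group. In WT tetracycline granules MT-CO1 reached 1196 ± 488 CPM per kb (SD, n = 3) and MT-CO3 591 ± 303 CPM per kb (SD, n = 3), and the light-strand tRNAs MT-TY and MT-TS1, at 116 ± 67.2 and 113 ± 63.3 CPM per kb (SD, n = 3), lay beside MT-CYB at 109 ± 30.2 CPM per kb (SD, n = 3). These neighbours did not differ beyond their spread. The tRNA genes named here are 66 to 69 bases long and MT-CYB is 1141, and the read length is not known. The part of gene length in these levels was not tested, so tRNAs and mRNAs cannot be ranked against each other with certainty.

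**Figure D1:**
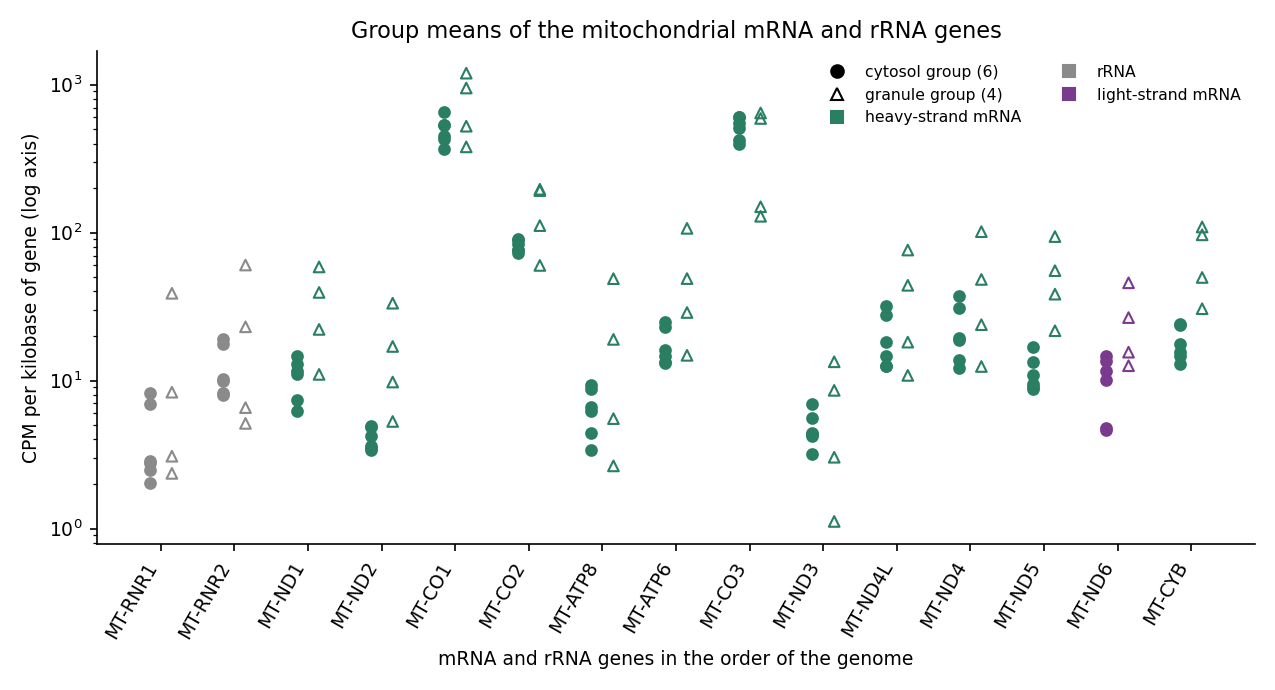
Mean level of the 15 mRNA and rRNA genes in each of the 10 groups, in CPM per kilobase on a log axis, with filled symbols for cytosol and open triangles for granules. MT-CO1 and MT-CO3 stand above the other genes in every group, and granule groups without arsenite lie to the high side for most genes.

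The count of 13 members was too low in all fits to be tested. MT-TN, on the light strand, was the best covered of them with 58 counts over the 30 libraries, and the 12 heavy-strand tRNAs among them had 1 to 53 counts. A further 3 light-strand tRNAs, MT-TQ, MT-TA and MT-TE, passed the filter only where granule libraries entered the fit. The cytosolic comparisons below therefore cover 21 members, 16 heavy and 5 light, and the comparisons with granules 24 members, 16 heavy and 8 light. Because MT-TQ, MT-TA and MT-TE passed through the group where they were high, their granule differences are a description, and counts are also given over the 21 members that passed on the cytosolic libraries alone.

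The cytosolic calls between the lines fell on a pair of tRNAs at the end of the genome, of which MT-TT was the less firm. The light-strand MT-TP was higher in WDM than in WT cytosol in each of the 3 conditions, and the heavy-strand MT-TT was lower in WDM in untreated cytosol. In untreated WT cytosol MT-TP stood at 3.74, 4.63 and 2.80 CPM, and in untreated WDM cytosol at 15.4, 14.0 and 14.5 CPM. The groups did not overlap, and the WDM libraries lay close together. The fold was 3.85 (log2 1.94, SE 0.20, Benjamini-Hochberg adjusted p = 9.63e-07 by edgeR's quasi-likelihood test).

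After tetracycline, MT-TP was at 3.99, 2.34 and 2.19 CPM in WT cytosol and at 8.40, 6.29 and 9.64 CPM in WDM cytosol. The groups again did not overlap, and the difference was 2.76-fold (log2 1.46, SE 0.21, edgeR adjusted p = 5.3e-05). With arsenite the WT libraries were at 2.80, 2.62 and 2.90 CPM and the WDM libraries at 5.64, 3.88 and 4.14 CPM. They were still separate, at 1.63-fold (log2 0.70, SE 0.22, edgeR adjusted p = 0.0453). This last call passed by a small margin: it was lost without WT replicate 1, 2 or 3 or WDM replicate 1 or 3, with adjusted p up to 0.222, and by DESeq2. The MT-TP calls of the other conditions were kept with any 1 library left out and under every alternative run.

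MT-TT stood at 2.86, 2.63 and 3.38 CPM in untreated WT and at 1.81, 1.18 and 1.14 CPM in untreated WDM cytosol, which did not overlap. The log2 difference was -1.12 (SE 0.31, edgeR adjusted p = 0.0225), but it was lost without WT replicate 1 or 3 or WDM replicate 2 or 3, with adjusted p up to 0.108. MT-TP and MT-TT were the members called in untreated cytosol, 1 higher and 1 lower of 21 tested, beside 4.19% of all 16670 genes called higher and 5.6% lower. After tetracycline 1 member was called higher and 0 lower, beside 5.8% and 6.84% of all genes. With arsenite 1 was called higher and 0 lower, beside 4.98% and 5.37%. These shares put the count of members near the background, and it was MT-TP that was called each time. The median log2 difference of the 21 tested members was 0.07 untreated, -0.17 after tetracycline and 0.03 with arsenite, beside 0.01 or less over all genes.

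**Figure D2:**
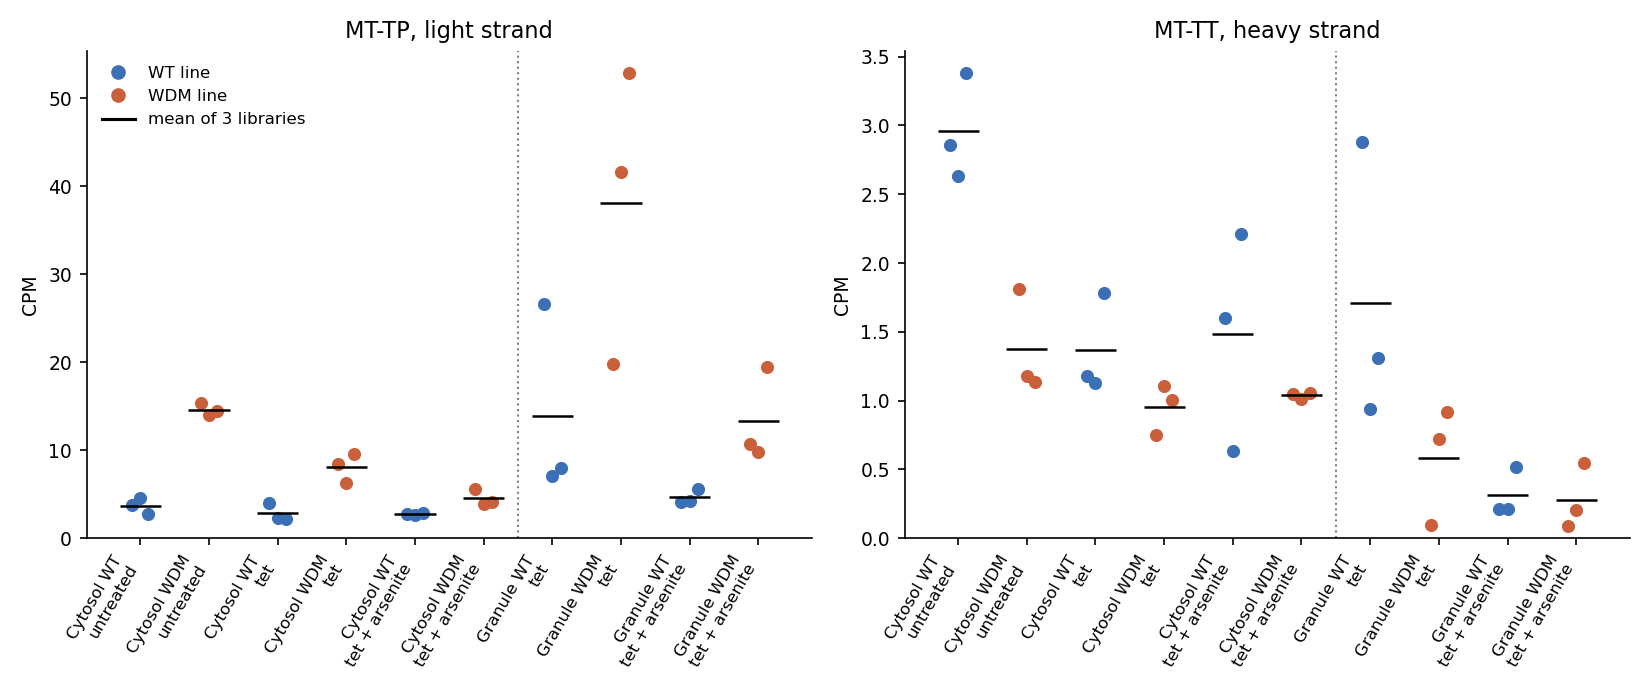
CPM of MT-TP and MT-TT in each of the 30 libraries by group, with bars at the mean of 3 libraries. MT-TP lies higher in WDM than in WT cytosol in each condition, with 15.4, 14.0 and 14.5 CPM in untreated WDM, and MT-TT has its highest group mean in untreated WT cytosol.

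With tetracycline and no arsenite, 6 of the 12 heavy-strand mRNAs were called lower in WDM cytosol and 2 in WT cytosol. Of these calls, only those of MT-ND4 and MT-CYB in WDM were kept with any 1 library left out. In WT cytosol 3 of 21 tested members were called lower, MT-CO1, MT-ND4 and MT-TT, and 0 higher, beside 2.39% and 2.93% of all genes. In WDM cytosol 7 were called lower and 0 higher, beside 3.23% and 3.07% of all genes. The median of the tested members was -0.37 in WT and -0.61 in WDM on the log2 scale, with values near 0 over all genes. The cause of these lower levels was not tested. In these bulk samples of a cell fraction, less mitochondrial RNA per cell and fewer cells or mitochondria carrying it cannot be told apart. Less mitochondrial material in the fraction cannot be told apart from them either. Tetracycline was also given to switch on the transgene, and with no line lacking it the drug and the induction are confounded.

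MT-ND4 was at 44.0, 49.1 and 62.1 CPM in untreated WDM and at 22.0, 22.8 and 32.8 CPM after tetracycline. No library of one group reached the other, and the log2 difference was -0.96 (edgeR adjusted p = 0.000771). In WT the corresponding values were 44.0, 41.4 and 43.3 CPM untreated and 28.9, 22.1 and 28.9 CPM after tetracycline, a log2 difference of -0.65 (edgeR adjusted p = 0.015). The WT call was lost without untreated replicate 1 or 2 or tetracycline replicate 2 (adjusted p up to 0.0657).

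The other WDM calls were MT-CO1 (log2 -0.58, edgeR adjusted p = 0.0108), MT-ATP6 (-0.73, 0.0253), MT-ND4L (-1.02, 0.01), MT-ND5 (-0.78, 0.0423), MT-CYB (-0.87, 0.00873) and, on the light strand, MT-TP (-0.82, 0.00894). MT-ND5 and MT-ND4L are complex I subunits, MT-ATP6 is a proton channel subunit of complex V, and MT-CYB is the cytochrome b of complex III. MT-ND4, MT-CYB and MT-TP kept their calls with any 1 library left out. MT-CO1 and MT-ND4L lost theirs without untreated replicate 3 (adjusted p of 0.0676 and 0.0666), MT-ATP6 without each library but untreated replicate 2 (up to 0.14), and MT-ND5 without untreated replicate 1 or 3 or tetracycline replicate 1 or 2 (up to 0.15). In WT, MT-CO1 fell by 0.49 on the log2 scale (edgeR adjusted p = 0.0332), a call kept only without tetracycline replicate 1 (up to 0.147 otherwise), and MT-TT fell by 1.08 (0.0468), a call lost whichever 1 of the 6 libraries was left out (up to 0.153). Without WT tetracycline replicate 1, 5 members were called lower in WT, and without untreated replicate 1 or 2 or tetracycline replicate 2, 0 were. Without WDM untreated replicate 3, 3 were called lower in WDM. The difference between the lines in this response passed for 0 of the 21 members by edgeR (1 at an unadjusted p under 0.05) and 0 by DESeq2, beside 0.018% of all genes.

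Arsenite lowered the light-strand message MT-ND6, a complex I subunit, in the cytosol of both lines. In WT cytosol MT-ND6 stood at 7.31, 5.32 and 5.51 CPM after tetracycline and at 1.84, 2.22 and 3.51 CPM with arsenite added. The groups did not overlap, with a 2.61-fold drop (log2 -1.39, SE 0.20, edgeR adjusted p = 7.08e-05). In WDM cytosol it went from 4.64, 5.18 and 6.04 CPM to 2.23, 2.33 and 2.71 CPM, again with no overlap, a 2.36-fold drop (log2 -1.24, SE 0.20, edgeR adjusted p = 0.000188). Both calls were kept with any 1 library left out and under every alternative run.

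MT-ND6 fell by more than the heavy-strand mRNAs as a sum. Per 100 heavy-strand mRNA counts there were 0.530, 0.548 and 0.502 MT-ND6 counts in WT tetracycline cytosol and 0.160, 0.197 and 0.299 with arsenite. In WDM cytosol these ratios were 0.395, 0.440 and 0.476 without and 0.157, 0.204 and 0.215 with arsenite. The untreated libraries, at 0.435 to 0.524 in WT and 0.420 to 0.473 in WDM, lay with the tetracycline libraries, and all arsenite cytosol libraries lay below them. The 12 heavy-strand mRNAs summed to 1150 ± 209 CPM (SD, n = 3) in WT cytosol after tetracycline and 1152 ± 22.0 CPM (SD, n = 3) with arsenite, a change smaller than the spread, and to 1207 ± 54.0 and 1275 ± 142 CPM (SD, n = 3) in WDM. That sum is mostly MT-CO1. Its WT levels overlapped between the groups (447 to 760 CPM without and 688 to 713 CPM with arsenite), while its WDM levels did not, at 690, 607 and 697 CPM without and 949, 731 and 790 CPM with arsenite. The WDM difference of 0.22 on the log2 scale did not pass (edgeR adjusted p = 0.214). MT-CO1 is part of the denominator of the MT-ND6 ratio.

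**Figure D3:**
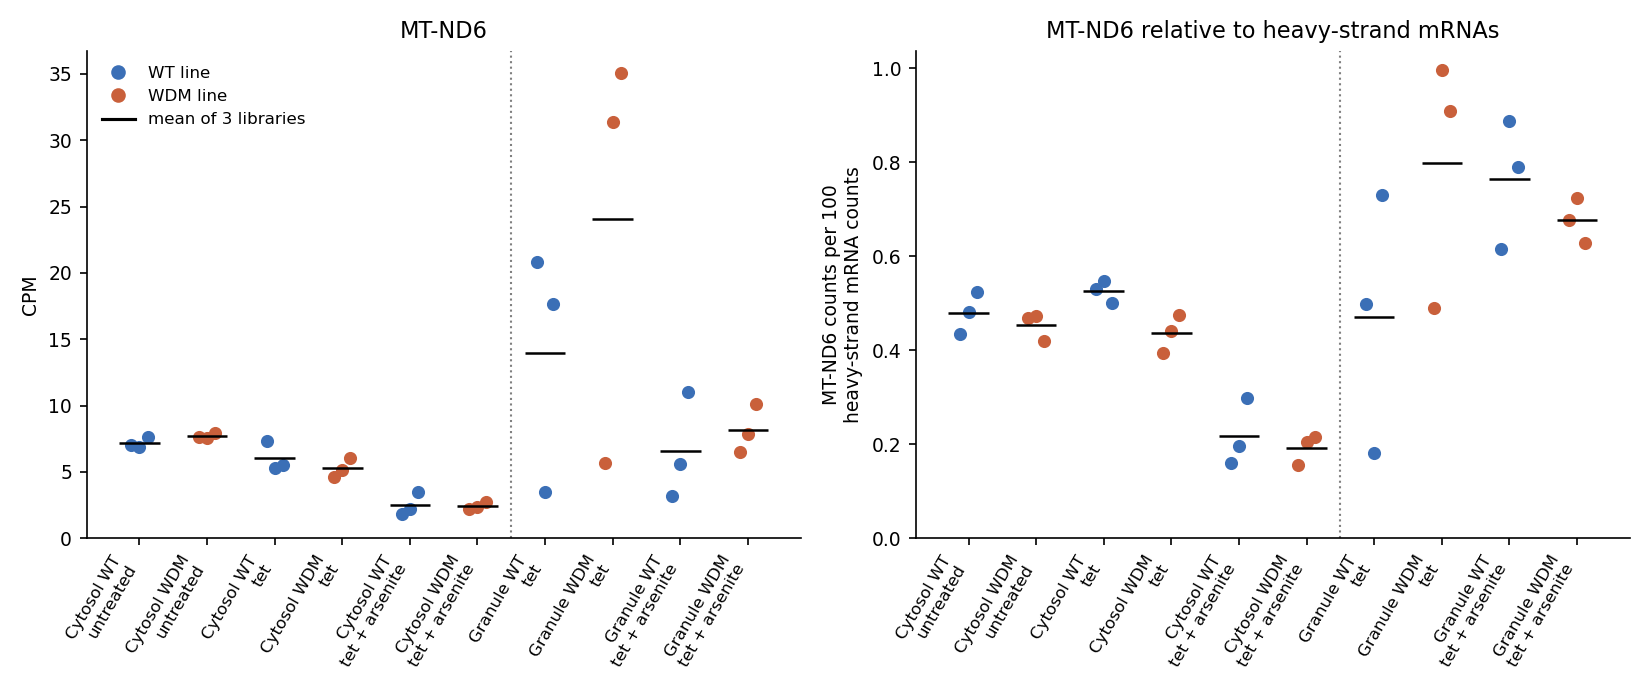
MT-ND6 in CPM and MT-ND6 counts per 100 counts of the 12 heavy-strand mRNAs, for each of the 30 libraries by group, with bars at the mean of 3 libraries. The 6 arsenite cytosol libraries have the lowest ratios among the cytosolic libraries, 0.157 to 0.299, and the arsenite granule libraries do not, at 0.615 to 0.887.

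Among heavy-strand mRNAs, MT-ND1, MT-ND4 and MT-CO3 fell with arsenite in both lines. MT-ND1, a complex I subunit, was at 10.6, 9.60 and 11.8 CPM in WT tetracycline cytosol and at 5.20, 6.58 and 6.03 CPM with arsenite, a log2 difference of -0.98 (edgeR adjusted p = 0.000978). In WDM it went from 9.53, 11.9 and 12.1 CPM to 7.74, 5.67 and 7.82 CPM (log2 -0.77, edgeR adjusted p = 0.00483). Neither pair of groups overlapped. MT-CO3 was at 437, 409 and 442 CPM in WT without arsenite and 322, 318 and 353 CPM with it (log2 -0.51, edgeR adjusted p = 0.000932). In WDM its values were 351, 444 and 405 CPM without and 316, 274 and 349 CPM with arsenite (log2 -0.45, edgeR adjusted p = 0.00273), so that the highest arsenite library came close to the lowest of the others. MT-ND4 was lower by 0.80 in WT and by 0.54 in WDM on the log2 scale (edgeR adjusted p of 0.000768 and 0.0105), the latter lost without WDM tetracycline replicate 3 (0.107).

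Altogether 8 of the 21 tested members were called lower and 0 higher in WT, beside 15.4% and 13.7% of all genes, and 5 lower and 0 higher in WDM, beside 14.8% and 14.1%. The remaining WDM call was MT-TP, lower by 0.93 (edgeR adjusted p = 0.00186) and kept with any 1 library left out. The remaining WT calls were less firm. MT-TW, a heavy-strand tRNA for tryptophan (log2 -1.04), and MT-TY (-1.27) passed the filter of this fit only through libraries without arsenite, where they were high. Their differences are therefore a description, and no p-value is given for them, though the count of 8 takes them in. The MT-TW call was lost whichever 1 of the 6 libraries was left out. MT-ATP8 fell by 1.09 (edgeR adjusted p = 0.0311) and MT-ND4L by 0.67 (0.0447). The groups of MT-TY, MT-ATP8 and MT-ND4L overlapped. Their calls were each lost without tetracycline replicate 1 or 3 or arsenite replicate 1 or 2, with adjusted p up to 0.161 for MT-ATP8 and MT-ND4L. When any 1 of those 4 libraries was left out, 4 members were called lower in WT, and without tetracycline replicate 1 another 1 was called higher. By DESeq2 5 were called lower. The median log2 difference of the tested members was -0.40 in WT and -0.25 in WDM, with values near 0 over all genes. The arsenite response differed between the lines in 0 of 21 members by edgeR (2 at an unadjusted p under 0.05) and 0 by DESeq2, beside 0% of all genes.

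The nuclear genes that work with these transcripts were read from lists. In the same cytosolic arsenite comparison, the nuclear subunits of complex IV were lower in 6 of 6 tested in both lines, beside 15.4% of all genes in WT and 14.8% in WDM (median log2 -0.41 in WT and -0.46 in WDM), for example COX7A2 at -0.44 (edgeR adjusted p = 0.00504) and -0.48 (0.00307). Of 70 tested proteins of the mitochondrial ribosome, 32 fell in WT and 22 in WDM, and 0 rose in either, beside the same shares of all genes. TFAM, which packages mitochondrial DNA and starts its transcription, was lower by 0.37 in WT and by 0.29 in WDM (edgeR adjusted p of 0.0077 and 0.0273). POLRMT was at 0.24 and 0.22 and did not pass (0.0975 and 0.126). Of the 10 genes of mitochondrial transcription, the WT test called 0 higher and 1 lower, and the WDM test 1 higher and 2 lower. Of 10 tested genes of RNA processing, 0 were called in either line by edgeR. SLIRP, which stabilises mitochondrial mRNA with LRPPRC, was lower by 0.40 in both lines (edgeR adjusted p of 0.0153 and 0.0161), while LRPPRC at -0.16 in both did not pass (0.118 in both). SLIRP and PNPT1 were the 2 of 7 called in the stability list in each line.

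In the granule fraction, the light-strand tRNAs MT-TS1 and MT-TY were higher than in cytosol in both lines, with and without arsenite, and MT-TC was higher only without arsenite by this test, whereas the median of the heavy-strand genes was well above 0 without arsenite and near 0 with it. The median log2 difference of the 5 light-strand members that passed the filter on cytosolic libraries was 2.11 in WT and 2.25 in WDM after tetracycline, and 1.40 and 1.70 with arsenite. For the 16 tested heavy-strand members it was 1.36 and 2.42 without and -0.21 and 0.32 with arsenite. Over all 18141 genes it was 0.07, 0.02, 0.05 and 0.06 in the same order. After tetracycline 12 of 24 tested members were called higher and 1 lower in WT, beside 39.5% and 36.2% of all genes, and 21 higher and 0 lower in WDM, beside 35.8% and 35.3%. With arsenite the WT test called 4 higher and 3 lower, beside 35% and 35.5%, and the WDM test 8 higher and 2 lower, beside 36.3% and 35.7%. Over the 21 members that passed on cytosolic libraries alone, 9 were higher in WT and 18 in WDM after tetracycline, and 2 and 6 with arsenite, with the same numbers lower as before. In WT those lower numbers take in MT-TW, which passed the filter of this fit only through cytosolic libraries, where it was high. Most genes differ between these fractions, so apart from WDM tetracycline the counts of members alone lie near or below the background. With 1 library left out, the number called higher after tetracycline ranged from 9 to 18 in WT and from 15 to 21 in WDM. The calls of MT-CO2 in both lines, MT-TA and MT-ND1 in WT and MT-ND3 in WDM were each lost in 5 of 6 such fits.

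**Figure D4:**
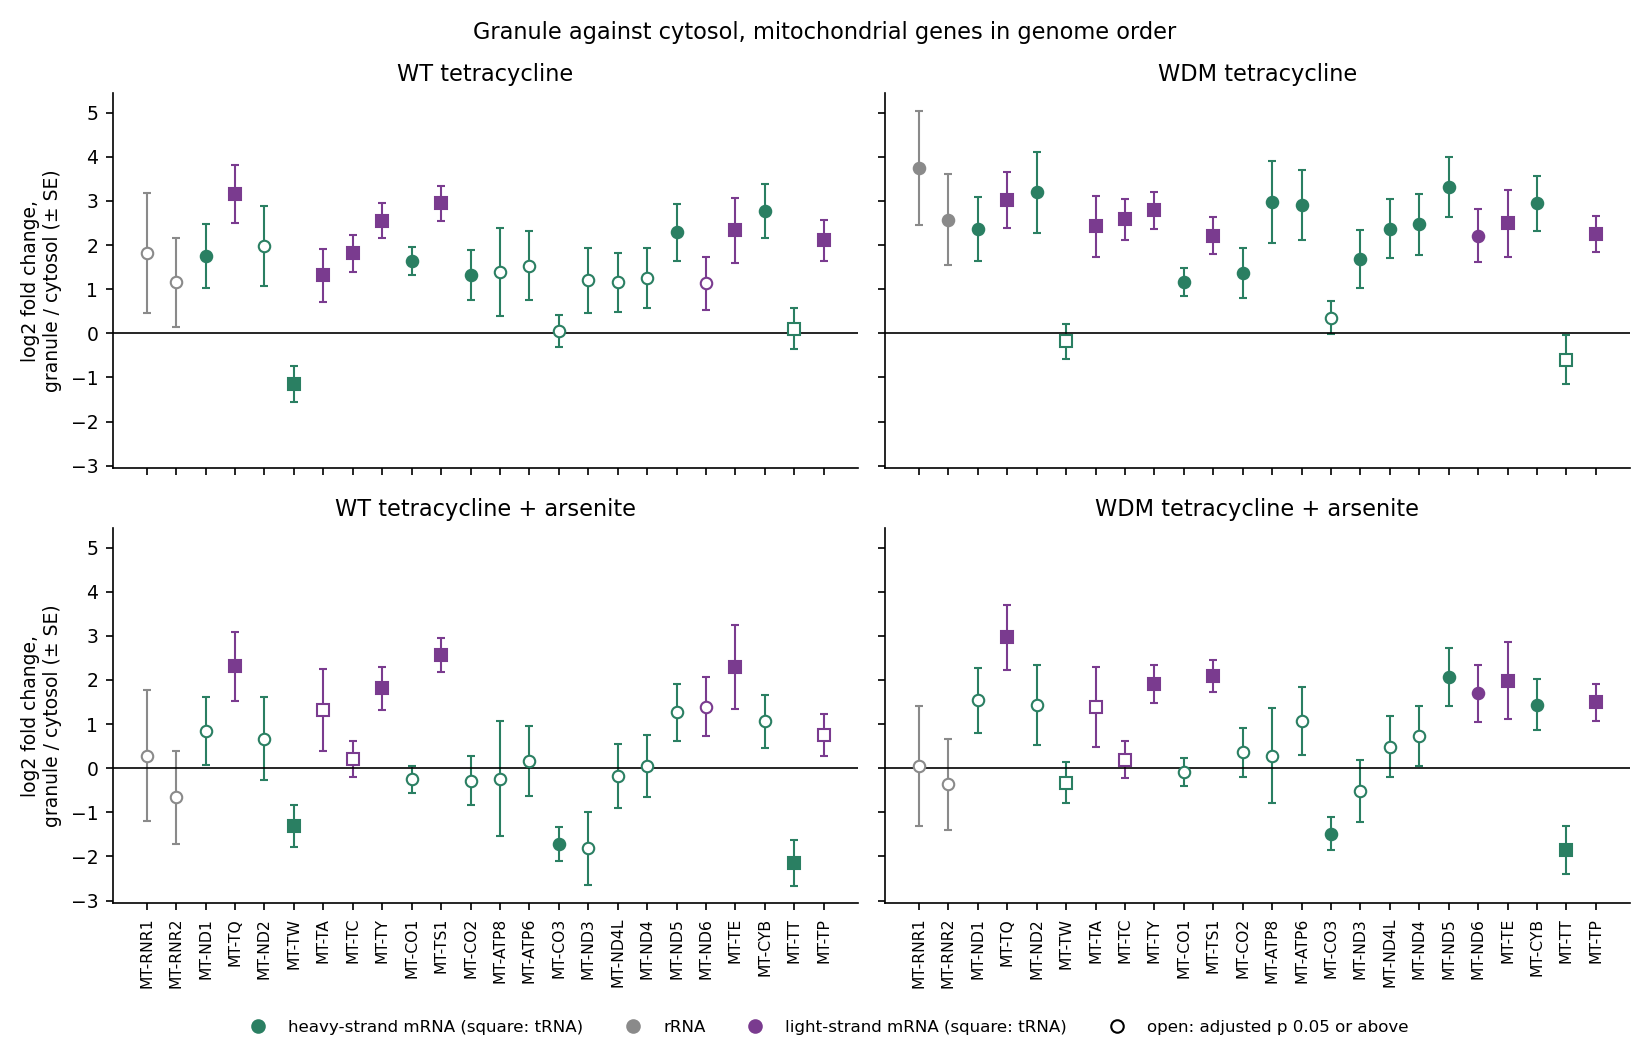
Log2 difference of granule over cytosol, with SE, for each tested member in genome order, in 4 panels for WT and WDM after tetracycline and with arsenite, where filled symbols have an adjusted p under 0.05. Light-strand members lie above 0 in all 4 panels, while with arsenite MT-CO3 and MT-TT lie below 0 in both lines.

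MT-TS1, the tRNA for serine that follows MT-CO1 on the opposite strand, was among the steadiest. In WT it stood at 1.55, 0.484 and 0.648 CPM in tetracycline cytosol and at 12.5, 6.87 and 3.93 CPM in granules. With arsenite the cytosol was at 1.28, 0.714 and 0.687 CPM and the granules at 3.82, 6.71 and 5.53 CPM. In neither condition did a granule library reach down to a cytosolic one. The log2 differences were 2.95 (edgeR adjusted p = 9.01e-08) and 2.58 (9.2e-07). In WDM they were 2.22 (2.64e-05) after tetracycline, from 0.878, 0.740 and 0.847 CPM in cytosol to 3.27, 4.81 and 3.31 CPM in granules, and 2.09 (9.82e-06) with arsenite, from 0.919, 0.955 and 1.43 CPM to 4.01, 4.26 and 6.24 CPM. These groups did not overlap either.

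MT-TY, the tyrosine tRNA, was higher in granules by 2.55 and 2.78 on the log2 scale after tetracycline (WT and WDM, edgeR adjusted p of 2.07e-06 and 1.35e-06) and by 1.81 and 1.91 with arsenite (0.00193 and 0.000353). Its WT values were 1.85, 0.565 and 1.05 CPM in cytosol and 12.2, 7.34 and 3.34 CPM in granules after tetracycline, and 0.640, 0.159 and 0.763 CPM and 1.33, 2.24 and 1.97 CPM with arsenite. Both pairs were separate, although with arsenite the level in granules was lower than without. All 8 calls of MT-TS1 and MT-TY were kept with any 1 library left out. MT-TC, the cysteine tRNA, was higher by 1.82 in WT and 2.58 in WDM after tetracycline (edgeR adjusted p of 0.000284 and 1.37e-05), and with arsenite it was at 0.21 and 0.20 in overlapping groups and did not pass (0.665 and 0.681). MT-TQ, the glutamine tRNA, passed the filter through the granule libraries. It was higher there by 3.16 in WT and 3.01 in WDM after tetracycline, and by 2.31 and 2.97 with arsenite. MT-TE, the glutamate tRNA next to MT-ND6, passed in the same way. It was higher by 2.34 and 2.49 after tetracycline, and by 2.29 and 1.99 with arsenite. MT-TQ had 1 to 8 counts in each cytosolic library and MT-TE 0 to 4. Because of how both passed, these differences are a description, and no p-value is given for them. In the counts of called members, the WT arsenite call of MT-TQ was lost without cytosol replicate 2 or granule replicate 3. The arsenite calls of MT-TE were lost without cytosol replicate 2 or 3 or granule replicate 3 in each line. The WDM tetracycline call of MT-TE was lost without granule replicate 3.

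MT-TP, the tRNA that differed between the lines, was higher in granules after tetracycline, at 26.6, 7.03 and 7.98 CPM in WT and 19.8, 41.7 and 52.9 CPM in WDM, and both sets lay above the matching cytosol values given above. The log2 differences were 2.11 in WT and 2.25 in WDM (edgeR adjusted p of 0.000344 and 4.4e-05). With arsenite it was at 4.08, 4.26 and 5.61 CPM in WT granules, a log2 difference of 0.75 that did not pass (0.16), and at 10.7, 9.85 and 19.5 CPM in WDM granules, a difference of 1.49 that did (0.00311). The 8 light-strand tRNAs summed to 39.2 ± 24.8 CPM (SD, n = 3) in WT tetracycline granules and 6.86 ± 2.06 CPM in the matching cytosol, and to 56.4 ± 22.2 and 11.2 ± 2.16 CPM in WDM. With arsenite the sums were 15.0 ± 2.78 against 5.96 ± 1.15 CPM in WT and 24.1 ± 8.88 against 7.90 ± 1.55 CPM in WDM. This sum takes in every light-strand tRNA without a filter, and the lowest granule library lay above the highest cytosolic library of the same line and treatment in all 4 pairings. MT-ND6 was higher in WDM granules, by 2.21 after tetracycline (edgeR adjusted p = 0.00305) and 1.70 with arsenite (0.0249). Its tetracycline groups overlapped, since granule replicate 1 was at 5.65 CPM where replicates 2 and 3 were at 31.4 and 35.1 CPM and the cytosol reached 6.04 CPM. The arsenite call was lost without WDM cytosol replicate 1, 2 or 3 or granule replicate 3 (adjusted p up to 0.0744). In WT the differences were 1.13 and 1.40 and did not pass (0.0955 and 0.067).

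The heavy-strand messages behaved unevenly. Without arsenite MT-CYB rose in granules from 23.4, 11.1 and 18.6 CPM to 156, 88.1 and 129 CPM in WT, a log2 difference of 2.77 (edgeR adjusted p = 0.000585) between groups that lay far apart. In WDM it rose from 14.4, 13.4 and 16.2 CPM to 26.4, 129 and 175 CPM, by 2.94 (0.000446), with replicate 1 again the lowest of the granule libraries. MT-ND5, a complex I subunit, rose by 2.29 in WT (edgeR adjusted p = 0.00441) and by 3.32 in WDM (0.000319), where the granule libraries were at 37.9, 200 and 273 CPM and the cytosol at 14.0, 13.4 and 24.3 CPM. These groups did not overlap. MT-CO1 rose by 1.65 in WT (6.03e-05), from 760, 447 and 505 CPM to 2712, 1371 and 1450 CPM, and by 1.16 in WDM (0.00229), from 690, 607 and 697 CPM to 788, 1656 and 1945 CPM. With arsenite MT-CO1 was not different by this test (log2 -0.25 in WT, edgeR adjusted p = 0.48, and -0.09 in WDM, 0.814), at 393, 446 and 917 CPM in WT granules and 672, 724 and 1028 CPM in WDM granules. All of the calls in this paragraph were kept with any 1 library left out.

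MT-CO3 went the other way once arsenite was present. In WT arsenite cytosol it stood at 322, 318 and 353 CPM and in the granules at 56.7, 81.3 and 165 CPM, a log2 difference of -1.71 (edgeR adjusted p = 0.00045). In WDM the cytosol was at 316, 274 and 349 CPM and the granules at 116, 102 and 134 CPM, a difference of -1.48 (0.00158). The groups did not overlap in either line, and both calls were kept with any 1 library left out. MT-TT, the heavy-strand threonine tRNA, was also lower (log2 -2.15 in WT and -1.85 in WDM, edgeR adjusted p of 0.000581 and 0.00324), from 1.60, 0.635 and 2.21 CPM to 0.212, 0.215 and 0.520 CPM and from 1.05, 1.01 and 1.05 CPM to 0.0902, 0.207 and 0.547 CPM. Several of those granule libraries lie near the floor of 3 counts. MT-TW, at -1.31 in WT granules with arsenite, passed the filter of this fit only through cytosolic libraries, where it was high. Its difference is therefore a description, and no p-value is given for it. In the counts of called members, its WT arsenite call was lost without cytosol replicate 1 or granule replicate 2. Its WT tetracycline call, also lower, was lost without cytosol replicate 1 or granule replicate 3.

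Other arsenite calls of heavy-strand mRNAs in granules were confined in this test to WDM, with MT-ND5 higher by 2.07 (edgeR adjusted p = 0.00895), at 46.5, 59.0 and 103 CPM against 17.3, 14.4 and 16.2 CPM in cytosol, and MT-CYB by 1.44 (0.0353). The MT-CYB call was kept only without granule replicate 1 (adjusted p up to 0.153 otherwise). In WT the values of MT-ND5 and MT-CYB were 1.27 and 1.06 and did not pass (0.0883 and 0.119). The difference between lines in the granule-over-cytosol ratio passed for 0 of 24 members in either treatment by edgeR and by DESeq2, beside 0.00551% of all genes. The number called higher in WT with arsenite was 2 without cytosol replicate 2 or without granule replicate 3, and the number called lower was 5 without granule replicate 3. In WDM with arsenite, 5 were called higher without cytosol replicate 2 or 3 or granule replicate 3.

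The rRNAs were the least steady members. MT-RNR1, the small-subunit rRNA, ranged from 0.595 to 67.6 CPM among the 3 WDM tetracycline granule libraries, and MT-RNR2, the large-subunit rRNA, from 4.16 to 168 CPM. Both were called higher than in the matching cytosol (log2 3.75, edgeR adjusted p = 0.0167, and 2.58, 0.0333), although the groups overlapped. The MT-RNR1 call was lost without cytosol replicate 2 or granule replicate 3 (adjusted p up to 0.0675) and the MT-RNR2 call without cytosol replicate 1 or 2 or granule replicate 2 or 3 (up to 0.138). The summed rRNA was 44.0 ± 29.1 CPM (SD, n = 3) in WT tetracycline granules and 131 ± 117 CPM (SD, n = 3) in WDM tetracycline granules, against 18.0 ± 11.1 and 18.6 ± 10.7 CPM in cytosol. Even the cytosolic groups differed in spread, from 35.3 ± 3.10 CPM in untreated WT to 14.9 ± 10.1 CPM in WT with arsenite.

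Nuclear-encoded subunits of complex IV and proteins of the mitochondrial ribosome stood lower in granules than in cytosol. The nuclear subunits of complex IV were called lower in 6 of 6 in every pairing, where 35.3% to 36.2% of all genes were lower and 35% to 39.5% higher (median log2 -3.19 and -2.68 in WT and WDM after tetracycline, -3.30 and -3.51 with arsenite). Of 70 mitochondrial ribosomal proteins 68, 66, 68 and 68 were lower in the same order, and 0, 1, 1 and 1 higher. TFAM was lower by 1.56 in WT and by 0.84 in WDM after tetracycline (edgeR adjusted p of 3.56e-08 and 0.000334). Lower levels were not particular to mitochondrial partners. The cytosolic mRNAs ACTB, GAPDH, EEF1A1 and TUBB summed to 7428 to 10252 CPM in cytosolic and 1635 to 3515 CPM in granule libraries. The list of mitochondrial RNA stability overlapped between the fractions, at 1120 to 1312 CPM in cytosolic and 800 to 1382 CPM in granule libraries. The nuclear-retained RNA NEAT1 was higher in granule libraries by 4.65 and 3.58 after tetracycline and 3.67 and 3.23 with arsenite (edgeR adjusted p of 3.37e-11, 2.06e-09, 1.43e-09 and 9.4e-09), and 2 or 3 of the 3 tested nuclear RNAs were called higher in each pairing. The part of nuclear RNA in the granule differences of the members was not tested.

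Within the granule fraction, MT-TC, MT-TY and MT-CO3 were lower with arsenite than without in both lines. The heavy-strand mRNA sum went from 2841 ± 1185 to 849 ± 477 CPM (SD, n = 3) in WT and from 2721 ± 1404 to 1219 ± 340 CPM (SD, n = 3) in WDM. In WT 6 of 24 tested members were called lower and 0 higher, beside 14.1% and 16.5% of all genes, and in WDM 4 were lower and 0 higher, beside 17.7% and 18.7%, so that the WDM count lies near the background. Those counts take in MT-TA in both lines and MT-TT in WT. MT-TA and MT-TT passed the filter of this fit only through the libraries without arsenite, where they were high. The WDM count depended on 1 library: without tetracycline replicate 1 it was 19, of which 17 were among the 24, and without arsenite replicate 3 it was 7. By DESeq2 on all libraries it was 11, of which 10 were among the 24, and the others (MT-TD and MT-TN, and MT-TN) had not passed the filter of the edgeR fit. MT-TC was at 7.11, 2.73 and 3.26 CPM in WT and 2.48, 4.48 and 3.98 CPM in WDM granules without arsenite. With it the values were 1.33, 1.72 and 1.49 CPM and 0.992, 0.911 and 2.15 CPM. The groups were separate in each line (log2 -1.40, edgeR adjusted p = 0.00406, and -1.50, 0.00148).

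MT-TY fell by 1.93 in WT and by 1.28 in WDM granules (edgeR adjusted p of 0.00017 and 0.00307). The MT-TC and MT-TY calls were kept with any 1 library left out. MT-TA, the alanine tRNA, fell by 1.85 and 2.06, which is a description because of how it passed the filter. Its call was lost in WT without tetracycline replicate 3 or arsenite replicate 1 and in WDM without tetracycline replicate 3. MT-CO3 went from 735, 294 and 361 CPM to 56.7, 81.3 and 165 CPM in WT granules, where it fell by 2.18 on the log2 scale (edgeR adjusted p = 0.0215) with no overlap. In WDM granules it went from 211, 620 and 682 CPM to 116, 102 and 134 CPM, where it fell by 2.19 (0.0177), also with no overlap. The MT-CO3 call was lost in WT without tetracycline replicate 1 or arsenite replicate 1 or 2 (adjusted p up to 0.0698), and in WDM it was kept only without tetracycline replicate 1 (up to 0.0625 otherwise). MT-CO1 fell by 1.64 in WT granules (edgeR adjusted p = 0.00665), and this call was kept with any 1 library left out. MT-TT fell by 2.17 in WT granules, a description for the same reason as for MT-TA. The difference between lines in this response passed for 0 members by edgeR and by DESeq2, beside 0% of all genes.

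**Figure D5:**
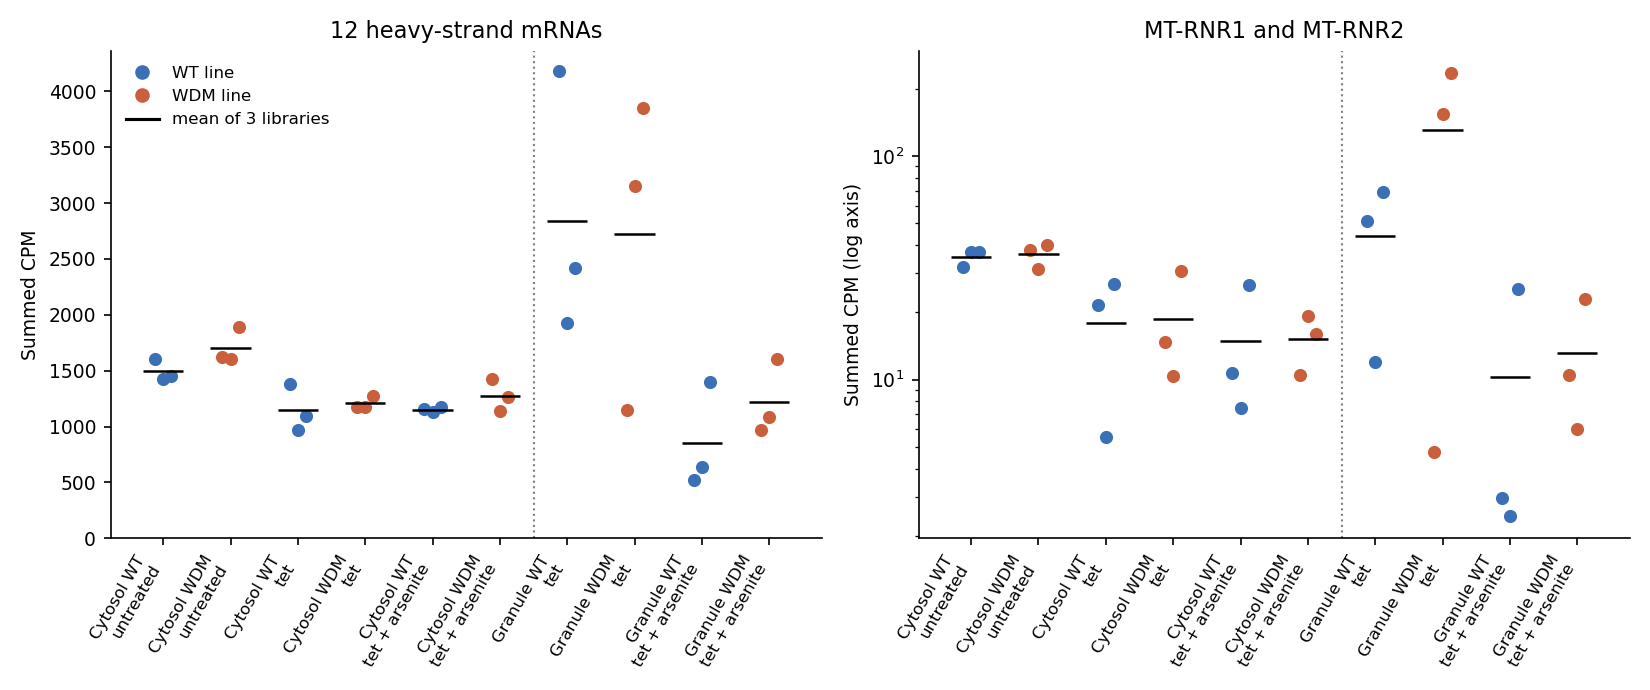
Summed CPM of the 12 heavy-strand mRNAs (linear axis) and of MT-RNR1 and MT-RNR2 (log axis) in each of the 30 libraries by group, with bars at the mean of 3 libraries. Granule libraries without arsenite spread widely and reach the highest heavy-strand mRNA sums, and those with arsenite lie near or below the cytosolic libraries.

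The granule-over-cytosol ratio was lower with arsenite for MT-CO1, MT-CO3 and MT-TC in both lines, tested as the difference of both ratios. In WT 5 of 24 members had a lower ratio with arsenite and 0 a higher one, beside 19.4% and 12% of all genes, and in WDM 3 and 0, beside 16.5% and 7.66%, so that both counts of lower ratios lie near the background. The median change of the tested members was -1.35 in WT and -1.25 in WDM, with -0.21 and -0.17 over all genes. MT-CO1 changed by -1.90 in WT and -1.24 in WDM on the log2 scale (edgeR adjusted p of 0.00247 and 0.0429), MT-CO3 by -1.77 and -1.84 (0.0149 and 0.0149) and MT-TC by -1.61 and -2.39 (0.0402 and 0.00705). In WT MT-TT changed by -2.26 (0.0149) and MT-ND3, a complex I subunit, by -3.01 (0.0439). The WT call of MT-CO1 and the WDM call of MT-TC were kept with any 1 of the 12 libraries left out. MT-CO3 was lost in WT without tetracycline granule replicate 1 (0.0522) and in WDM without tetracycline granule replicate 3 (0.0508), and MT-TT without arsenite cytosol replicate 3 (0.0658). The remaining calls were lost without at least 7 of the 12 libraries. Without WDM tetracycline granule replicate 1, 8 members had a lower ratio in WDM, and without replicate 3 of the same group 1 had.

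Between the lines, 0 of 24 tested members were called in granules by edgeR after tetracycline (3 at an unadjusted p under 0.05) or with arsenite (1 at an unadjusted p under 0.05), beside 5.55% and 7.95% of all genes, and DESeq2 called 0 in both. MT-TP, higher in WDM cytosol, was also at higher values in WDM granules: log2 1.58 after tetracycline (edgeR adjusted p = 0.189) and 1.44 with arsenite (0.172). With arsenite the groups did not overlap, at 4.08 to 5.61 CPM in WT and 9.85 to 19.5 CPM in WDM, while after tetracycline WT replicate 1, at 26.6 CPM, lay inside the WDM range. Among the alternatives, only the fit without that library called the tetracycline difference (log2 2.36, edgeR adjusted p = 0.000118). With arsenite, only the fit on these groups alone called it (log2 1.46, edgeR adjusted p = 0.000122). MT-TS1 was at -0.93 and MT-TT at -1.25 after tetracycline and did not pass (0.0971 and 0.199).

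Nuclear copies of mitochondrial DNA share reads with several members. Among the 415 annotated copies that were counted, 333 had 0 counts. MTCO1P12, a nearly complete copy of MT-CO1 on chromosome 1 (chr1:631074-632616), received 47897 counts, with a mean of 78.4 CPM in cytosol and 147 CPM in granules. It was higher in granules by 2.03 in WT and 1.39 in WDM after tetracycline (edgeR adjusted p of 3.39e-06 and 0.000302) and at 0.16 and 0.27 with arsenite (0.647 and 0.413), beside the MT-CO1 values of 1.65, 1.16, -0.25 and -0.09 in the same order. Stretches of 75 bases with an exact match in the nuclear chromosomes made up 36.7% of MT-CO1, 34.4% of MT-ND2, 28.4% of MT-RNR1, 28.0% of MT-ATP6, 17.1% of MT-ND1, 14.9% of MT-CO3, 10.5% of MT-CO2 and 7.10% of MT-ND6. No such stretch was found in MT-CYB, MT-ND4, MT-ND4L, MT-ND3 or MT-ATP8. Among the tRNAs, stretches of 50 bases were matched for 0% of MT-TP and MT-TT, 11.8% of MT-TY, 64.7% of MT-TC and 100% of MT-TS1, MT-TQ, MT-TE, MT-TA and MT-TW. Levels of members with such copies are uncertain by the reads that the counting assigned to the copy or dropped. The library kit keeps the strand of each read, but the strand setting of the counting is not given in the sources used here, so reads of a light-strand gene and of the heavy-strand transcript across it cannot be told apart with certainty.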

How the data were processed

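Total RNA from 18 cytosolic and 12 granule libraries was sequenced after rRNA depletion with a kit that keeps the strand. The deposited table holds the authors' raw count of reads per gene, in 30 columns, for 60664 genes. Trimmomatic, STAR, Picard, featureCounts and GRCh38 are named, without roles or versions, per the submitters' processing notes. The counter's strand and multi-mapping settings, the annotation release and the read length are not given in the sources used here.

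Groups were taken from the sample labels. Members were the 37 rows on chromosome MT. The members and the gene lists were chosen with earlier results of these data known. The text names members and genes of those lists only, with the nuclear copies of mitochondrial DNA. Library size was the total over all genes. Low genes were dropped by filterByExpr at a minimum count of 10 and a total of 15, and counts were scaled by TMM and tested with edgeR 4.0.16 (limma 3.58.1, R 4.3.3) by a robust quasi-likelihood fit with Benjamini-Hochberg adjustment over all genes tested, at 0.05. The 3 fits covered the cytosol (18 libraries, 16670 genes, biological coefficient of variation 0.103), the granules (12 libraries, 18366 genes, 0.161) and both fractions after tetracycline (24 libraries, 18141 genes, 0.145), so the libraries outside a comparison share in its spread. Comparisons that share control libraries are not independent. Sums over members are given as CPM of the library total, with mean and SD and no p, since the members were chosen with results known. The pipeline was tested on simulated data.

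Alternatives were RLE factors, library size alone, scaling on nuclear genes, no filter, a fit on the compared groups alone, DESeq2 1.42.0, a replicate block and leaving out each library. Replicates of a group differed by more than sampling noise (chi-square per degree of freedom 1.63 to 40.7 over genes with at least 20 counts), so none was counted as a duplicate. Same-numbered libraries deviated together in 1 comparison, WDM arsenite granules against cytosol (correlations 0.35, 0.563 and 0.306), where the block ended no call. Sequences were read from the hg38 mitochondrial chromosome at GENCODE 44 coordinates, identical to the table's for 37 of 37 genes. Python 3.11.15 with numpy 2.4.6, scipy 1.17.1, pandas 2.3.3 and matplotlib 3.10.9 served for sums and plots.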

Additional observations from a re-analysis of the deposited data

Results flagged for a closer look

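The granule-over-cytosol ratio differed between libraries with and without arsenite in 8 cases, 5 in WT and 3 in WDM, by edgeR's test of that difference. It was lower with arsenite each time, and the values are on the log2 scale. In WT these were MT-CO1 (-1.90), MT-CO3 (-1.77), MT-ND3 (-3.01), MT-TC (-1.61) and MT-TT (-2.26). In WDM they were MT-CO1 (-1.24), MT-CO3 (-1.84) and MT-TC (-2.39). These counts lie near the share of all genes with a lower ratio, 19.4% in WT and 16.5% in WDM. The WT call of MT-CO1 and the WDM call of MT-TC were kept with any 1 of 12 libraries left out, and the others were lost in at least 1 such fit: MT-ND3 and the WDM call of MT-CO1 in 10 of 12 and the WT call of MT-TC in 7 of 12.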

How the results depend on the processing

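Of 96 called differences of single members, 55 kept their call under every alternative, and 1088 of 1284 alternative values were still called, with 0 reversed. By setting, 96 of 96 calls were kept with nuclear-gene scaling, 94 with RLE factors, 89 with library size alone, 85 with DESeq2, 81 with no filter and 73 of 84 with the compared groups alone. With the replicate block 94 of 96 were kept, losing MT-TA and MT-CO2 once each in granules against cytosol after tetracycline. The cause of these changes was not tested.

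Counts of called members changed as follows. Untreated WDM over WT, 1 higher: 3 with no filter, 2 with the replicate block, 3 with the compared groups alone. Arsenite cytosol WDM over WT, 1 higher: 0 with RLE factors, library size alone, the compared groups alone or DESeq2. WT tetracycline cytosol, 3 lower: 1 with the compared groups alone. WT arsenite cytosol, 8 lower: 4 with library size alone, 4 with the compared groups alone, 5 with DESeq2. WDM arsenite cytosol, 0 higher: 1 with no filter. Granule WDM over WT, 0 called: 1 lower after tetracycline with no filter and 1 higher with arsenite with the compared groups alone. WDM arsenite granules, 4 lower: 7 with no filter, 11 with DESeq2. Granules over cytosol, WT tetracycline, 1 lower: 0 with DESeq2. Change of that ratio with arsenite, 5 lower in WT and 3 in WDM: 3 and 1 with no filter. The log2 differences of sums that follow are means over the lines or over the treatments. On TMM-scaled values the difference with arsenite in cytosol was -0.44 for summed heavy-strand tRNA (-0.33 as reported by library total). For summed light-strand tRNA it was -0.45 (-0.34). WDM over WT in cytosol was 0.11 for all members (0.14) and 0.11 for heavy-strand mRNA (0.14).

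Leaving out 1 library gave these ranges of called members. Untreated WDM over WT: 0 to 1 lower. Tetracycline cytosol WDM over WT: 1 to 2 higher, 0 to 1 lower. Arsenite cytosol WDM over WT: 0 to 1 higher. Tetracycline over untreated: 0 to 5 lower in WT, 3 to 7 in WDM. WT arsenite cytosol: 0 to 1 higher, 4 to 8 lower. Granule WDM over WT, tetracycline: 0 to 1 higher, 0 to 1 lower. WDM arsenite granules: 3 to 19 lower. Granules over cytosol: WT tetracycline 9 to 18 higher and 0 to 1 lower, WDM tetracycline 15 to 21 higher, WT arsenite 2 to 6 higher and 2 to 5 lower, WDM arsenite 5 to 9 higher. Change of that ratio: 2 to 6 lower in WT, 1 to 8 in WDM. Log2 differences of sums are means over lines, over treatments or over both. With arsenite they ranged from -0.47 to -0.14 for heavy-strand tRNA in cytosol. In granules they ranged from -2.03 to -1.36 for heavy-strand tRNA and from -3.34 to -1.93 for rRNA. For WDM over WT they ranged in cytosol from 0.10 to 0.19 for all members, 0.10 to 0.18 for heavy-strand mRNA and -0.23 to -0.083 for MT-ND6 per heavy-strand mRNA, and in granules from 0.47 to 0.86 for light-strand tRNA. For granules over cytosol, heavy-strand tRNA ranged from -0.65 to -0.31. Its single pairings of line and treatment ran from -1.40 to 0.44 on all libraries, and 1 of 4 was higher in granules. Depth left 13 of 37 members untested, and the tRNAs rest on few counts in each library.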
